A study of Homo sapiens with 8 samples.

Results

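The 3 Mb of chromosome 2 around MYCN, from 14.5 to 17.5 Mb on GRCh38, held 217 of the 153624 poly(A) peaks in the list, chosen by position alone. Poly(A) 3′-sequencing, in which reads begin where the poly(A) tail joins the transcript, was done in Kelly and Kelly E9R cells, human neuroblastoma lines cultured with DMSO or with THZ531, which blocks CDK12 and CDK13, 2 kinases that act on RNA polymerase II, by binding them covalently. Kelly E9R cells derive from Kelly cells, were made resistant by growth in an inhibitor named E9, and carry a CDK12 mutation at the cysteine that THZ531 binds. The 4 groups of 2 libraries were Kelly with DMSO, Kelly with THZ531, Kelly E9R with DMSO and Kelly E9R with THZ531, each for 6 h, and the THZ531 dose was 400 nM per the labels. Peaks had been called once, on the reads of all libraries together, so the list has 0 columns of values per library and 0 peaks with a strand. The effect of THZ531 and the difference between the lines therefore have no value here, and no value below has a replicate.

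MYCN encodes a transcription factor of the MYC family that drives a subset of neuroblastomas, in which the gene is amplified together with flanking DNA. Kelly cells are known for such an amplification. DDX1, an RNA helicase, and NBAS, which acts in vesicle transport between Golgi and endoplasmic reticulum, lie on the telomeric side of MYCN and can be amplified with it, while CYRIA, which binds the small GTPase RAC, lies on the other side. MYCNOS is transcribed from the strand opposite to MYCN. A polyadenylated transcript usually ends a short way after a hexamer such as AATAAA or ATTAAA, the polyadenylation signal, whereas oligo(dT) can also prime at A-rich stretches inside a transcript.

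Sequences at the ends of MYCN, DDX1, NBAS and CYRIA are shown first, because the peaks at the ends of these genes can be read against them. They are taken from GRCh38, 5′ to 3′ on the strand of the gene, with the hexamers in capitals. The AATAAA of MYCN began 20 bases, and its ATTAAA 5 bases, before the nearest annotated transcript end. That transcript end lies just before the gene end, 15947007. A further AATAAA lay 514 bases past the gene end, inside the same peak.
MYCN, last bases, chr2:15946978-15947007, forward strand: tatgaaAATAAAtagcttaaaATTAAAtga
MYCN, past the end, chr2:15947509-15947538, forward strand: cagagtaagcagAATAAAcagatggaaatg
DDX1, chr2:15631071-15631100, forward strand: catcccaatgaaAATAAAtttgatgactat
NBAS, chr2:15166919-15166948, reverse strand: caacaaattgcaAATAAAactgtatggaaa
CYRIA, chr2:16549469-16549498, reverse strand: tgtgaaatgaaaATTAAAgtttggtacata

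A second set shows peaks of high pileup that have no annotated transcript end. They are a peak within the MYCN intron, the first peak after MYCN, and the highest peak between NBAS and the next gene on its left. The capitals mark AATAAA and ATTAAA and runs of at least 6 A. In the sequence shown for the last of these peaks 5 such stretches stand close together on the NBAS strand, whereas the peak in the MYCN intron holds a single ATTAAA. The MYCN intron peak is also followed by A-rich sequence on the forward strand, 10 bases with at least 7 A. The sequence of the first peak after MYCN runs on past the end of that peak at 15949048. Its ATTAAA and its run of A both lie beyond that end, so neither is a polyadenylation signal before it.
MYCN intron, chr2:15944444-15944593, forward strand: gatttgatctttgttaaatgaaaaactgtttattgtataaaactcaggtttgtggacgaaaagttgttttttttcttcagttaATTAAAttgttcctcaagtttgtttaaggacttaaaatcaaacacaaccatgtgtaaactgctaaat
First peak after MYCN, chr2:15948949-15949098, forward strand: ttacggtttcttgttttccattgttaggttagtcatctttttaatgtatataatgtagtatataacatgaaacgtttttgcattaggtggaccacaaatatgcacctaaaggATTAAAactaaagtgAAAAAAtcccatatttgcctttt
Highest peak after NBAS, chr2:15050212-15050361, reverse strand: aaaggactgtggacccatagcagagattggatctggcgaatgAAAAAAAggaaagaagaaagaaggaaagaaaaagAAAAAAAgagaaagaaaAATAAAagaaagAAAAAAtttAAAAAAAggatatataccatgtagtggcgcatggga

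Each peak carries 3 linked values, which were recovered from the deposited fold enrichment and p-value. The pileup is the number of extended reads over the summit of the peak. The local background is read here as the number of reads that start within 5 kb on either side of the summit, given per 100 bp. This reading was inferred from the default settings of MACS2, the peak caller, and from the values, which come out as whole reads per 10 kb, and every number of reads in 10 kb below rests on it. On this reading a background of 1 stands for 100 reads in 10 kb. The background counts both strands and includes the reads of the peak itself. It cannot fall below a floor of 0.190, the genome average. The fold is the pileup plus 1 over the background plus 1. If 1 read was kept per position and strand, which the sources used here do not state, the pileup could not exceed 100 per strand. Of all peaks 16 exceeded 100, and the highest pileup was 200. In that case the pileup of a very abundant transcript would be limited, and ranks by pileup near that number would not be ranks of transcript level. The background would then count occupied positions rather than all reads, so high backgrounds and ranks by background would be limited too. Pileups and backgrounds are therefore given below as values of the peaks and not as levels of the transcripts. Intervals are 95% exact Poisson intervals for reads and 95% Wilson intervals for shares, and both cover counting error only.

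MYCN carried the 2 highest backgrounds of the region. They came from the only peaks assigned to MYCN (ENSG00000134323.13, 15940550 to 15947007, forward strand), a gene of 6.46 kb that fits within a single background window. The peak at its transcription end site (TES) spanned 15946559 to 15948104 and had a pileup of 96 reads (77.8 to 117). Its background was 17.7 per 100 bp, or 1771 reads in 10 kb (1689 to 1855), and its fold was 5.18 (4.21 to 6.32). Among the 18256 TES peaks of protein-coding genes, 0 had a higher background and 4 a higher pileup, yet 7.79% had a lower fold. The median TES peak of a protein-coding gene had a pileup of 18.0, a background of 1.02 and a fold of 8.99. The fold thus placed MYCN low among these peaks, while both quantities that enter it were near the top. Over the median background of all TES peaks, 0.880, the same pileup would give a fold of 51.6. That value is a calculation only, because the background of a peak includes its own reads.

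The MYCN TES peak was also 1546 bp wide, and 0 peaks of chromosomes 1 to 22, X and Y were wider. It began 448 bp before the annotated end and reached 1097 bp past it, and its summit lay 363 bp before that end. The second MYCN peak, in the intron at 15944438 to 15944543, had a pileup of 59 (44.9 to 76.1) over a background of 21.5 (2146 reads in 10 kb), the highest of the region, and a fold of 2.67. Another peak, 1941 to 2041 bp past the gene end and therefore called intergenic, had a pileup of 45, a background of 16.2 and again a fold of 2.67. Reads of the same 10 kb enter all 3 backgrounds, so these values are not independent of each other.

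MYCNOS (ENSG00000233718.9, 15918350 to 15942249, reverse strand), a long non-coding RNA, had 6 peaks that fell into 2 groups. The 3 peaks next to the MYCN start, at 15938849 to 15939101, 15939835 to 15940285 and 15941409 to 15941580, had pileups of 40, 81 and 70 reads over backgrounds of 11.9, 13.2 and 14.0. The middle one lies at a transcript end of MYCNOS, where 3 overlapping AATAAA stand 23 to 31 bases before that end on the MYCNOS strand.
MYCNOS, chr2:15939904-15939933, reverse strand: tgtttgaaaataAATAAAtaaataagtgcg
The peak at 15941409 overlaps genes on both strands and the windows of the other 2 reach into MYCN, so that a read of MYCNOS and one of MYCN cannot be told apart. The other 3 peaks, 12.4 kb or more before the MYCN start, had pileups of 10, 11 and 12 and backgrounds of 0.460 to 0.780. MYCNUT, a non-coding RNA that starts upstream of MYCN, had 2 of these peaks within its span, which were assigned to MYCNOS. From one group to the other the background differed by a factor of more than 10 within a single annotated gene.

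**Figure D1:**
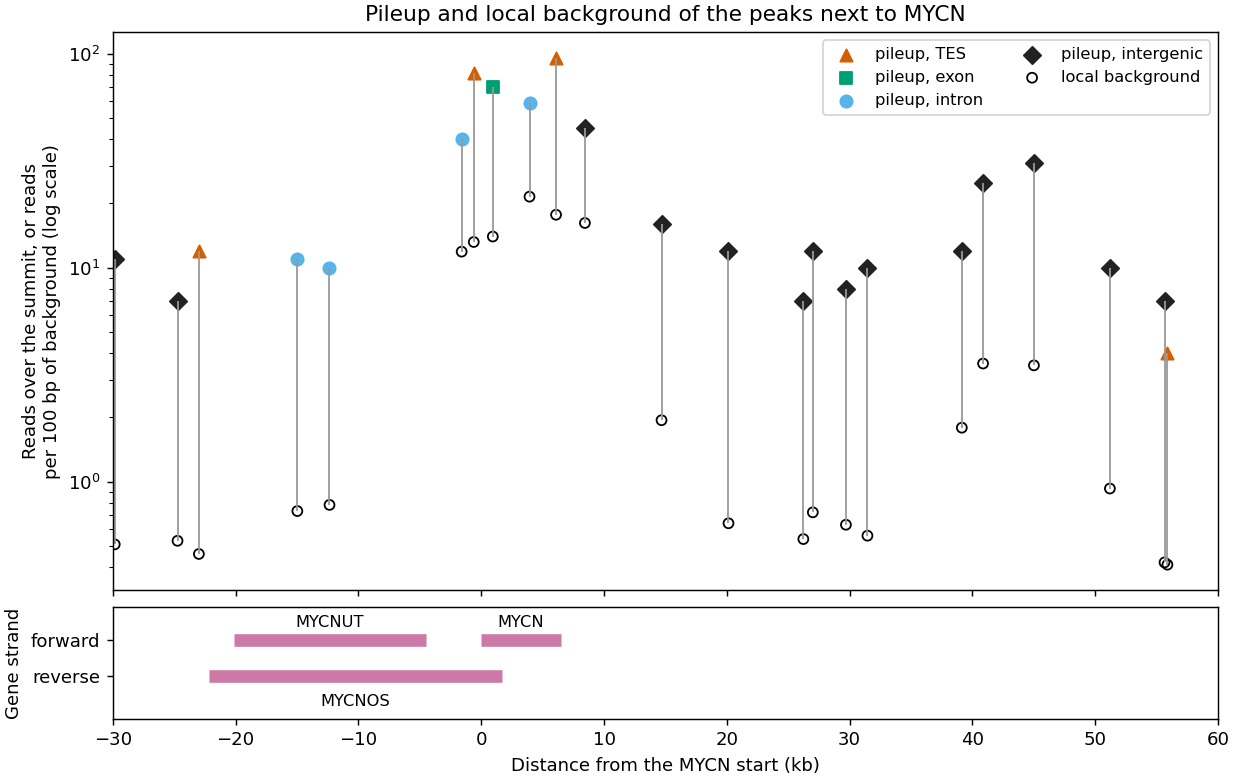
Pileup (filled symbols, coloured by class) and local background (open circles) of the peaks from 30 kb before to 60 kb after the MYCN start, on a log scale, with gene spans by strand below. The 6 peaks next to MYCN have backgrounds of 11.9 to 21.5, and a second rise to 3.57 lies 39.1 to 45.0 kb after the MYCN start, outside annotated genes.

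DDX1 (ENSG00000079785.16, 15591178 to 15634346, forward strand) had backgrounds close to or above 1 at each of its peaks. Its 11 peaks, 1 at a TES, 5 in exons and 5 in introns, had backgrounds of 0.880 to 1.63 and pileups of 10 to 39. The TES peak at 15630962 to 15631107 had a pileup of 29, a background of 1.30 and a fold of 13.0. Its 3′ edge lay 6 bp past the end of DDX1 in RefSeq and 24 bases after the first base of AATAAA. A peak in an exon at 15597304 to 15597443 was higher, with a pileup of 39, a background of 1.11 and a fold of 19.0. A background of at least 1 was reached by 10 of the 11 DDX1 peaks and by 19.8% of all peaks in the list on chromosomes 1 to 22, X and Y. The 19.8% mixes classes. Elsewhere the upper quartile of the background was 1.47 for TES peaks, 1.40 for exon peaks and 0.650 for intron peaks. A background of 1 was therefore less unusual at TES and exon peaks. Neighbouring DDX1 peaks also share reads of the same 10 kb, so they are not independent.

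NBAS (ENSG00000151779.14, 15166916 to 15561340, reverse strand), a gene of 394 kb, had the most peaks and low backgrounds throughout. Of its 48 peaks, 43 were intronic, 4 exonic and 1 at the TES. The TES peak at 15166904 to 15167027 had a pileup of 30, a background of 0.510 and a fold of 20.5, the highest fold of the region. The other peaks had pileups of 4 to 17, and the highest of them, in an intron at 15257409 to 15257518, had a background of 0.490. Backgrounds over the gene ran from the floor of 0.190 to 0.660, with 6 peaks at the floor. Over 4 equal segments from the start of the gene to its end the median background was 0.385, 0.270, 0.250 and 0.290. Of the 48 NBAS peaks 0 reached a background of 1, beside the 19.8% of all peaks given above. That share covers all classes. For intron peaks elsewhere, the class of 43 of the 48, the upper quartile of the background was 0.650, so most of those also lay below 1. The starts of NBAS and DDX1 lie 29.8 kb apart.

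NBAS intron peaks mostly lay before A-rich sequence of the NBAS strand, as intron peaks elsewhere did before that of their own gene. A-rich sequence, a run of 6 A or 10 bases with at least 7 A in the 50 bp after the peak, stood on the reverse strand only at 33 of the 43 peaks, on the forward strand only at 1, on both at 5 and on neither at 4. With 38 of 43 (88.4%) it stood on the NBAS strand, against 79.6% on the gene strand and 18.7% on the opposite strand of intron peaks outside the region, and the difference was not tested. A like series went on past the annotated end. Between 14993327 and 15130452, left of NBAS and in sequence without a GENCODE gene, 11 intergenic peaks had pileups of 5 to 16 and backgrounds of 0.190 to 0.280, and A-rich sequence stood on the reverse strand only at 10 of them and on both strands at 1. In RefSeq the NBAS span is longer than in GENCODE, 782 kb, and reaches left to 14778909, so that these 11 peaks lie within it. A peak with a pileup of 5, at the floor, begins at exactly that base and has a hexamer of the 12 searched on the reverse strand. Peaks have no strand of their own, so the strand of these reads is known only through the sequence beside them.

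CYRIA (ENSG00000197872.11, 16549459 to 16666331, reverse strand) had 17 peaks whose highest backgrounds lay at its end. A background of at least 1 was reached by 4 of the 17, beside the 19.8% of all peaks given above. The 2 TES peaks, at 16549460 to 16549731 and 16552631 to 16552939, had pileups of 16 and 18, backgrounds of 1.34 and 1.16 and folds of 7.26 and 8.80, and an exon peak between them had a pileup of 19. All 3 also overlap ENSG00000237633 on the forward strand, so that their reads cannot be assigned to CYRIA alone. The 14 intron peaks had pileups of 3 to 18 and backgrounds of 0.200 to 1.02, and A-rich sequence stood on the reverse strand only at 8, on the forward strand only at 2, on both at 3 and on neither at 1. The intron peak nearest to the gene start, at 16658688 to 16658851, had a pileup of 18 and a fold of 12.8. Right of it came 726 kb with 0 peaks, up to 17385051.

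**Figure D2:**
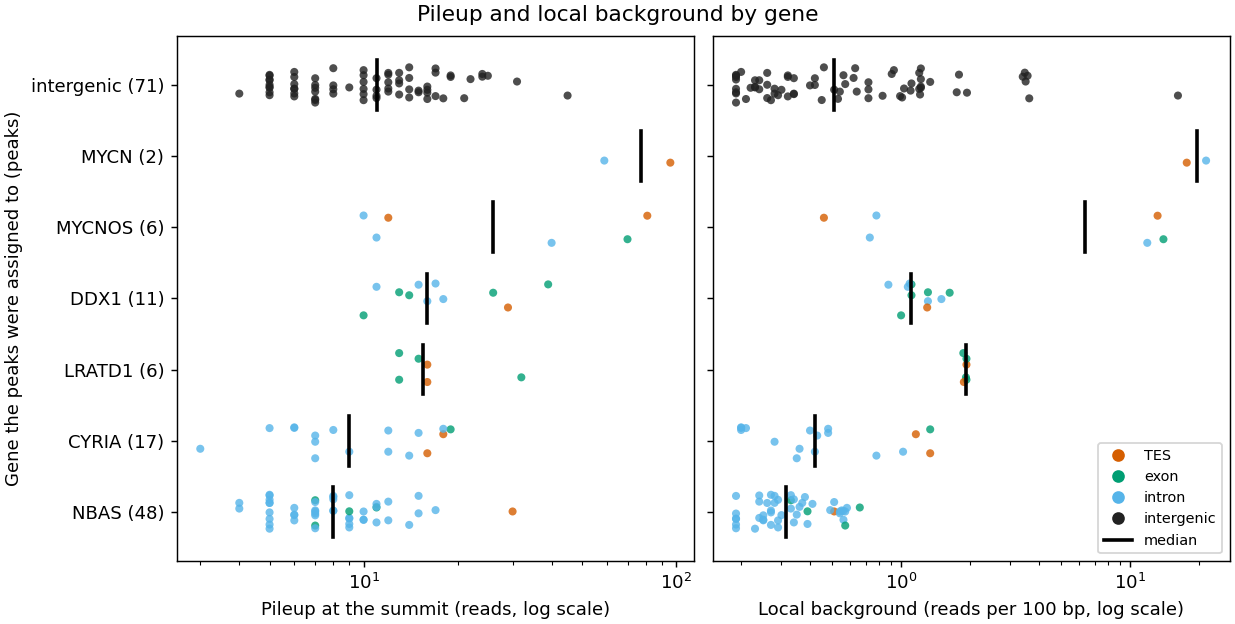
Pileup (left) and local background (right) of each peak by the gene it was assigned to, on log axes, with points coloured by class and black bars at the median. NBAS (48 peaks) and CYRIA (17 peaks) lie low on both axes, whereas MYCN (2 peaks) and 3 of the 6 MYCNOS peaks lie above a background of 10.

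Of the other genes, LRATD1, a protein-coding gene at the left edge of the region, had 6 peaks with backgrounds of 1.87 to 1.93, and an exon peak there had a pileup of 32 and a fold of 11.3. In all, 20 of the 40 genes with a span in the region had a peak assigned, 5 of them protein-coding and 11 long non-coding. The non-coding genes with the most peaks were ENSG00000228876 with 18, GACAT3 with 8, and ENSG00000287291 and ENSG00000224400 with 6 each. All peaks of ENSG00000287291, a gene of the reverse strand, also lie within the longer RefSeq span of NBAS. They include the peak described above at the left edge of that span. LINC01804 had 4 peaks, ENSG00000226764 and ENSG00000236989 had 3 each, and ENSG00000237633 had 2. ENSG00000234022, ENSG00000237326, ENSG00000279663 and the pseudogenes RPS26P18 and PSMC1P10 had 1 peak each. The highest of these non-coding peaks lay on the small nucleolar RNA gene ENSG00000251704, with a pileup of 38 and a background of 3.67. RefSeq lists a pseudogene, LOC124900535, that starts at the same base. This peak had a hexamer and A-rich sequence on the forward strand only.

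Intergenic peaks, those outside every basic GENCODE transcript and its end window, took a larger share in the region than elsewhere. Of the 217 peaks, 71 (32.7%, 26.8 to 39.2) were intergenic, against 9.43% of the 152804 peaks on the other parts of chromosomes 1 to 22, X and Y and 9.54% of the 11914 other peaks on chromosome 2. The remainder comprised 110 peaks in introns (50.7%), 19 at a TES (8.76%) and 17 in exons (7.83%). Among 912 other windows of 3 Mb the median share of intergenic peaks was 8.22%, and 28 windows (3.07%) had a larger one. The region had 217 peaks against a median of 153 in these windows, and 27.4% of the windows had more. The share depends on the gene set. Of the 71 peaks, 3 lie within the span of a GENCODE gene (LRATD1 or LINC01804) but outside its basic transcripts, and with all transcripts the share is 30.9%. Further, 17 of the 71 peaks lie within a RefSeq gene span, and 24.9% of all 217 peaks remain intergenic when these are counted as genic. The share outside the region was not computed with RefSeq spans, so the 24.9% cannot be set against 9.43%.

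The background of the intergenic peaks was higher than elsewhere, whereas that of the intron peaks was lower. The median was 0.510 for the intergenic peaks of the region against 0.350 elsewhere, and 0.335 against 0.420 for intron peaks. TES peaks had a median of 1.09 against 0.880, and exon peaks 1.11 against 0.850. Over all 217 peaks the median was 0.410 against 0.500. A background of at least 1 was reached by 54 of the 217 peaks (24.9%, 19.6 to 31.0), and 19.8% of all peaks in the list on these chromosomes reached it. Among intergenic peaks it was 21 of 71 (29.6%, 20.2 to 41.0), where 12.2% of all intergenic peaks reached it. Neighbouring peaks share reads of the same 10 kb, so these intervals, which take peaks as independent, are too narrow.

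Farther from genes the difference was larger. Of the 35 intergenic peaks at least 10 kb from every GENCODE gene, 13 (37.1%, 23.2 to 53.7) had a background of at least 1, against 2.91% of all such peaks in the list and 2.59% (98 of 3780) of those elsewhere. Their median background was 0.560 against 0.210. The 13 peaks came from 4 places, and 0 of them lies within a RefSeq gene span. Only 32 of the 912 other windows held any such peak, and 1 held more, with 14. With 4 places behind 13 peaks, the share describes few independent sites, and no test was made of it.

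**Figure D3:**
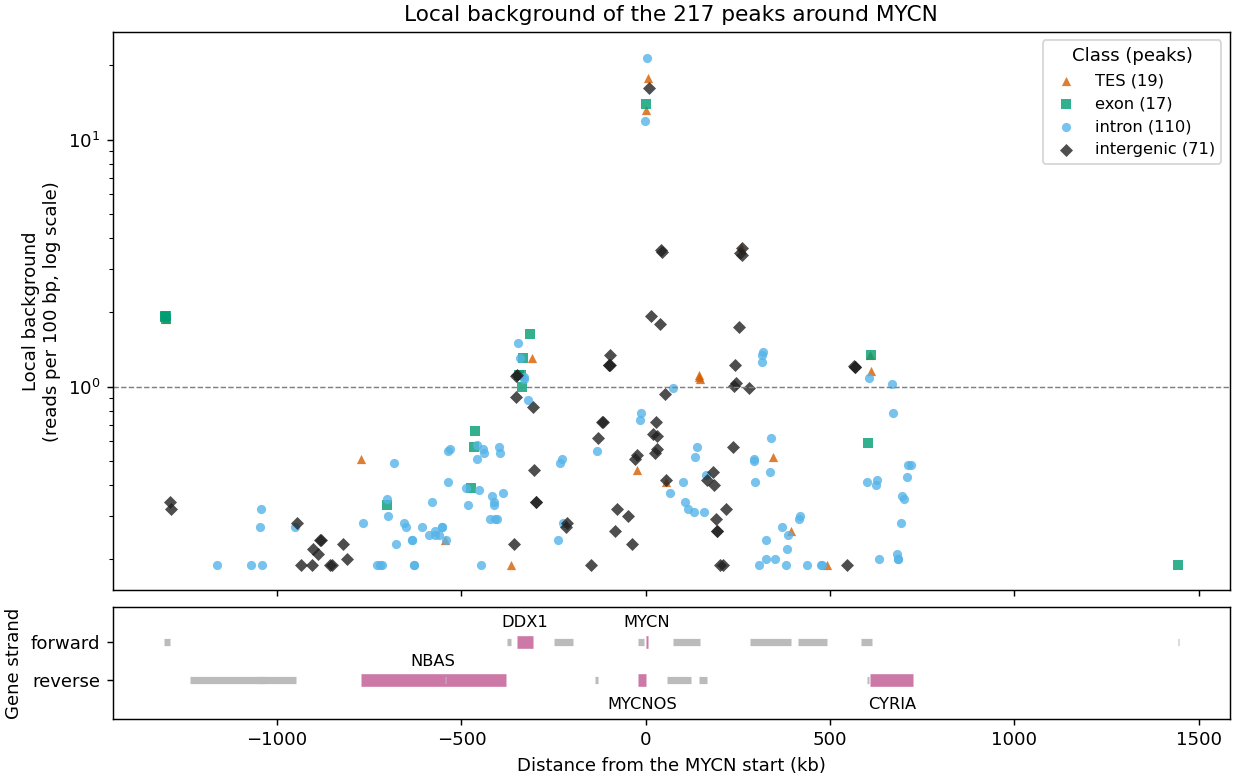
Local background of the 217 peaks on a log scale against the distance of the summit from the MYCN start, coloured by class, with gene spans by strand below and a dashed line at a background of 1. The highest values, up to 21.5, lie at MYCN, further groups of intergenic peaks above 1 lie on both sides of it, and the right end of the region is almost empty.

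In order along the chromosome, the 21 intergenic peaks with a background of at least 1 formed 6 clusters, joined where starts lay within 20 kb. The first, 2 peaks at 15589759 to 15590863 with backgrounds of 1.10 and 1.11, lies 315 bp before the DDX1 start. The second, 4 peaks at 15841751 to 15843722, lies 96.9 to 98.7 kb before the MYCN start and had backgrounds of 1.22 to 1.34 and pileups of 7 to 22. The third, 2 peaks at 15948948 to 15955269, begins with the peak just after MYCN and had backgrounds of 16.2 and 1.94. The fourth, 3 peaks at 15979656 to 15986053, lies 39.1 to 45.0 kb after the MYCN start, with backgrounds of 1.79 to 3.57, or 179 to 357 reads in 10 kb. The fifth, 7 peaks at 16178809 to 16201681, had backgrounds of 1.01 to 3.63 and pileups of 12 to 24. The last, 3 peaks at 16505621 to 16507481, had backgrounds of 1.20 and 1.21.

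In the fourth cluster the peak at 15985219 to 15986053 was 835 bp wide and had the second highest pileup among intergenic peaks, 31 reads over a background of 3.50, with a fold of 7.11. The third highest, at 15981365 to 15981468, had a pileup of 25 over a background of 3.57. The 100 bases around the summit of the wide peak are shown because they differ from the A-rich sequence beside most intergenic peaks. On the forward strand 82.0% of them are G or T, TG occurs 32 times, and there is no run of 6 A and neither AATAAA nor ATTAAA.
Summit of the wide peak, chr2:15985505-15985604, forward strand: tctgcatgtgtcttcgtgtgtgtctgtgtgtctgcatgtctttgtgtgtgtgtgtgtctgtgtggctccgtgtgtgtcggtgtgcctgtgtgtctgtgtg
In the fifth cluster the peak at 16200234 to 16200333 had the second highest background of the intergenic peaks, 3.63, with a pileup of 18, and it lies 939 bp from the small nucleolar RNA gene named above. A peak at 16201553 to 16201681, with a pileup of 24, begins 7 bp from the edge of the RefSeq non-coding gene LOC105373443. The highest folds among intergenic peaks, 15.2, came from places of low background. The peaks at 15862206 to 15862389 and 16159318 to 16159435 each had a pileup of 19 over a background of 0.320. The first of them has neither A-rich sequence nor a hexamer on either strand. Repetitive sequence can collect reads from many places, since reads were kept that mapped to several positions, and its part in these values was not tested.

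A-rich sequence was about as frequent beside intergenic peaks of the region as elsewhere. It stood on at least 1 strand at 78.9% (68.0 to 86.8) of the 71 peaks and at 78.7% of the intergenic peaks elsewhere. A polyadenylation hexamer, any of the 12 searched in the 100 bp before the 3′ edge, stood on at least 1 strand at 52.1% (40.7 to 63.3) against 62.5%. Intergenic peaks of the region had A-rich sequence on the forward strand only in 22 cases and on the reverse strand only in 32. For the 133 peaks whose genes lie on 1 strand, a hexamer stood on the gene strand in 53.4% (44.9 to 61.6) and in the mirrored window of the opposite strand in 42.9%. A-rich sequence followed 66.2% (57.8 to 73.7) of them on the gene strand and 27.1% on the opposite strand. Elsewhere these shares were 58.1% and 39.6% for hexamers and 67.7% and 21.7% for A-rich sequence. The 14 TES peaks among the 133 had a hexamer in 78.6% (52.4 to 92.4) and A-rich sequence in 28.6%, against 85.7% and 25.7% of TES peaks elsewhere. The wide MYCN TES peak counts here as without a hexamer. Its AATAAA and ATTAAA lie 583 to 1120 bases before its 3′ edge, outside the 100 bp searched. The 105 intron peaks had them in 46.7% and 72.4% (63.2 to 80.0), against 50.3% and 79.6% elsewhere.

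Against the other windows of 3 Mb, the region stood out by its highest background rather than by its typical one. Its highest background of 21.5 was exceeded in 2 of the 912 windows, whose median was 2.58. Its median background of 0.410 was exceeded in 64.3% of them, and its median for intergenic peaks of 0.510 in 23.8% of the 563 windows with at least 10 intergenic peaks. Of the 40 peaks with a background above 10, 6 lay in the region, all within 10 kb of the MYCN start. Without the peaks within 10 kb of MYCN, MYCNOS and MYCNUT the median was 0.390. More copies of a gene and more transcript from each copy cannot be told apart in these values, and the number of copies was not measured.

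**Figure D4:**
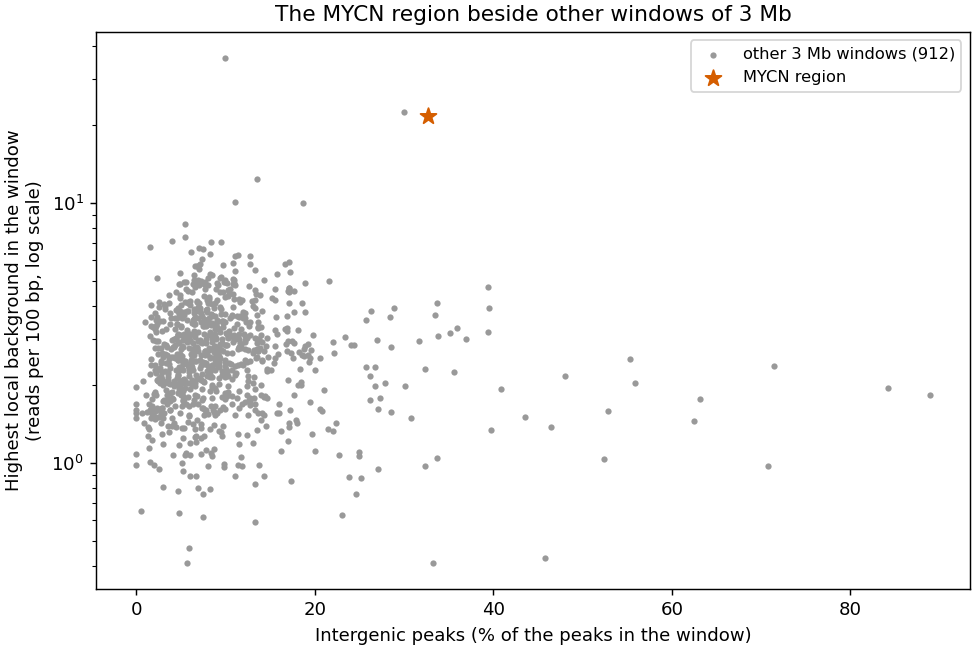
Highest local background in a window (log scale) against the share of its peaks that are intergenic, for 912 other windows of 3 Mb (grey) and the MYCN region (star). The region, at 32.7% and 21.5, has a higher background than all but 2 windows and a larger intergenic share than all but 28.

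The labelled cell type was checked on marker genes. The 5 adrenergic neuroblastoma markers given here, HAND2, GATA3, ISL1, TH and DBH, each had a TES peak, with highest pileups of 39 to 58, all below the 96 of MYCN. Their highest folds ran from 5.06 to 20.7. Of the fibroblast markers 1 of 4 had one (COL1A1, pileup 16, fold 13.0), of the blood markers 0 of 2 and of the epithelial markers 1 of 2 (EPCAM, pileup 6, fold 5.88). COL1A1 was thus near the median pileup of coding TES peaks, 18.0, and above their median fold, 8.99. The share of all coding genes with a TES peak is not given here, so the counts have no share beside them.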

How the data were processed

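Poly(A) 3′-sequencing libraries from 8 samples in 4 groups of 2 were analysed through 1 peak list. The authors mapped reads with STAR 2.5.1b to GRCh38, keeping reads with up to 20 positions, merged the samples and called peaks with MACS2 2.1.1. The deposited fold (a ratio of pileup to local background) and the deposited −log10 p-value and q-value were used as they stand. The score column and coverage tracks were not used here. Genome size, duplicate handling and depth per library are not given in the sources used here. The labels give the dose that is printed, and the study's methods name a lower one.

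Whole pileups and backgrounds were solved from the fold (pseudocount 1) and the Poisson p-value. The result matched the deposited −log10 p within 0.001 for 100.0% of peaks, and 99.95% of backgrounds above the floor were whole reads per 10 kb within 0.02. The recovery was tested on simulated data. Peaks were annotated with GENCODE 44 basic transcripts in the order TES (200 bp before to 600 bp after an end), exon, intron, intergenic, with coding genes and then longer transcripts first. RefSeq spans come from the GRCh38.p14 table. Hexamers were the 12 of the study, searched on the 2 strands. Python 3.11.15, pandas 2.3.3, NumPy 2.4.6, SciPy 1.17.1 and bedtools 2.31.1 were used. Coordinates count from 1.

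The named genes were the 5 genes of the region in full, their TES peaks and highest other peaks, every other gene with a peak, and the 3 intergenic peaks highest in pileup and in background. The region, the genes and the marker lists were chosen with earlier results of these data known. The labels number the 2 samples of a group, and the study's methods speak of biological replicates, but no comparison of samples was possible. Some items are not reported here.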

Additional observations from a re-analysis of the deposited data

How the results depend on the processing

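Of 24 alternative values, 15 stayed within the counting interval of the value reported (or within 1.5 times it, for the number of peaks) and 9 did not. Within 15.5 to 16.5 Mb alone there were 129 peaks per Mb in place of 72.3, the median background was 0.520 in place of 0.410, and 42.6% of peaks were intergenic in place of 32.7%. With RefSeq spans counted as genic, an alternative added after seeing the data, 24.9% were intergenic. Without the pseudocount the median background came out at 2.89, and the deposited p-values were then no longer met. With AATAAA and ATTAAA only, 29.3% of peaks had a hexamer in place of 53.4%. As 25 A with at most 3 mismatches, A-rich sequence followed 6.02% of peaks in place of 66.2%. By the looser definition of the 66.2%, the share on the opposite strand was 27.1%. Over the median background of TES peaks the MYCN fold would be 51.6 in place of 5.18, a calculation only, as said above. The median background of intergenic peaks, 0.510, ranged from 0.423 with 1 value per 10 kb to 0.620 within the 1 Mb. No paired analysis was possible because the list has no column per sample, and no sample could be left out for the same reason. Depth limits the lowest values, since 25 of the 217 peaks (11.5%) sat at the floor, where the local background is not known.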
